A study of Homo sapiens with 16 samples.

Results

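TRIM28 sites that were called both in shCtrl cells and in shARID1A cells numbered 1475, of 70447 TRIM28 peaks called against input in shCtrl cells on chromosomes 1 to 22 and X (2.09%). A site was a shCtrl peak of the list called against input that overlapped, by at least 1 bp, a TRIM28 peak in the shCtrl list called against IgG and in both lists of shARID1A cells, and such sites are called kept here. The sites were thus selected on the measured peaks of these 4 lists, so every value of the 4 lists at these sites is a description and no test. All libraries came from HCT116, a human line established from a colon cancer, and chromatin immunoprecipitation with sequencing (ChIP-seq) was done to ask how ARID1A relates to heterochromatin. The groups used were shARID1A cells (TRIM28, SETDB1 and H3K9me3), which carry a short hairpin RNA against ARID1A, shCtrl cells with a control hairpin (TRIM28, SETDB1, H3K9me3 and ARID1A), and cells with no hairpin named in their label, called unmodified (TRIM28, H3K9me3 and ARID1A). CTR in a title was taken to mean shCtrl, the control of the design text. Each group had 1 library, and the sources used here give no hairpin sequence, number of clones or time after knockdown. The peak lists do not show how far ARID1A was lowered. With single libraries no difference could be set against a spread between replicates, and all intervals cover counting error only.

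TRIM28 (KAP1) is a corepressor that DNA-bound KRAB zinc finger proteins bring to chromatin, often to transposable elements and to zinc finger genes. It recruits SETDB1, a methyltransferase that writes H3K9me3, the histone mark of constitutive heterochromatin. ARID1A is a DNA-binding subunit of the SWI/SNF (BAF) chromatin remodeller, which opens chromatin at enhancers and promoters.

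Several libraries overlapped libraries of another label more than those of their own. Of the shCtrl SETDB1 input-list peaks, 20.1% met a shARID1A H3K9me3 peak and 4.8% met a shARID1A SETDB1 peak. Of the unmodified ARID1A peaks, 27.3% were met by the library labelled shCtrl H3K9me3, whereas 5.68% of unmodified H3K9me3 peaks were. Results from these libraries are therefore results of the libraries so labelled.

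Sequences are shown only for gene promoters that a kept site overlaps. Only 4 of the 1379 kept sites on chromosomes of the promoter table (0.29%) lay in a RefSeq promoter window (250 bases before to 50 after a gene start, GRCh38.p14), beside 0.427% of all shCtrl TRIM28 input peaks. The windows are PTGS2 (inducible cyclooxygenase) at chr1:186680374-186680673, minus strand; PIK3C2G (a class II phosphoinositide kinase) at chr12:18261268-18261567, plus strand; C12orf50 at chr12:88029352-88029651, minus strand; and the non-coding LOC105373588 at chr2:121140660-121140959, minus strand. The site at PTGS2 also overlaps the promoter of PACERR, its antisense transcript. The sequences below run 5′ to 3′ on the gene's strand, and capitals mark the bases inside the kept site.
PTGS2: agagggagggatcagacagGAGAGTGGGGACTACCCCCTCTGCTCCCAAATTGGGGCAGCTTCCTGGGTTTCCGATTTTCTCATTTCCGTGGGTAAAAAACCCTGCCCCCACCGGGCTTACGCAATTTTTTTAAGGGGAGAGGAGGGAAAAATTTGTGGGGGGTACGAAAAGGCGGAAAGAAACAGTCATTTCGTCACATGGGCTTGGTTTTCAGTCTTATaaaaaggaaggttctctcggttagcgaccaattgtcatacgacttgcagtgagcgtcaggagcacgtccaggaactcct
PIK3C2G: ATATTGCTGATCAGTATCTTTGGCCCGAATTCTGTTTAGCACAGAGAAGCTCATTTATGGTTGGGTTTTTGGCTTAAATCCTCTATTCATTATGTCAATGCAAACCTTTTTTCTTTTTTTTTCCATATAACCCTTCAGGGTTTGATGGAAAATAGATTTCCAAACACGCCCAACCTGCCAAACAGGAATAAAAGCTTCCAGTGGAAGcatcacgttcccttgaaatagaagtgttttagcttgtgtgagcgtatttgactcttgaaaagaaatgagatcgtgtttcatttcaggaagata
C12orf50: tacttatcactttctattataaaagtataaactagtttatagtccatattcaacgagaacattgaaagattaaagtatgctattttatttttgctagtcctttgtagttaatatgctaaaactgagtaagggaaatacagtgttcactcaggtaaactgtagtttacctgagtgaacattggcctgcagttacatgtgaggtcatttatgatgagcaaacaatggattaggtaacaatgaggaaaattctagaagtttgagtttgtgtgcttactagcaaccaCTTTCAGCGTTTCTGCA
LOC105373588: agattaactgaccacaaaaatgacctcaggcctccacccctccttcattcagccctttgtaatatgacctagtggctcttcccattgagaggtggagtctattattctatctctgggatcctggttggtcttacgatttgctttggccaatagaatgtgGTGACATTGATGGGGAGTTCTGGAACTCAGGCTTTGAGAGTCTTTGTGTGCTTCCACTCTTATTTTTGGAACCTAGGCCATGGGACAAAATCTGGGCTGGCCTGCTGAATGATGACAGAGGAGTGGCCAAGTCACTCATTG
Bases inside the site numbered 202 at PTGS2, 207 at PIK3C2G, 141 at LOC105373588 and 17 at C12orf50. GC content was 50.7% at PTGS2, 47% at LOC105373588, 37.3% at PIK3C2G and 33.3% at C12orf50, each below the median of 58.7% over 34961 windows. TRIM28 fold enrichment at the PTGS2 site was 3.01 and 2.4 in shARID1A cells and 2.82 and 2.86 in shCtrl cells (input list, then IgG list). That site also carried a shCtrl SETDB1 peak of fold 5.5 against input. At the LOC105373588 site the TRIM28 fold was 4.71 and 3.53 in shARID1A cells and 2.98 and 2.37 in shCtrl cells, with no peak of another library. At PIK3C2G it was 2.01 and 2.62 in shARID1A cells against 2.57 and 2.78 in shCtrl cells, where ARID1A (3.48) and SETDB1 (3.18) also had peaks against input. At C12orf50 it was 1.93 and 2.1 in shARID1A cells against 2.98 and 2.75 in shCtrl cells. The rest of the sites have no sequence here, since no genome was used.

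TRIM28 peaks of shCtrl cells were mostly not called again in shARID1A cells. Of the 70447 input-list peaks, 50429 (71.6%) were also in the shCtrl IgG list. Of these double-called sites, 2846 (5.64%) met a peak of the shARID1A input list and 3991 (7.91%) one of the shARID1A IgG list. Both were met by the 1475 kept sites (2.92%, exact 95% interval 2.78 to 3.08), 3887 sites met 1 of the shARID1A lists, and 45067 (89.4%) met neither. The 45067 are called not found again below, and they passed the same shCtrl double call. Peaks of the shCtrl input list that were absent from the shCtrl IgG list met both shARID1A lists about as often, at 587 of 20018 (2.93%).

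The same measure can be put to the other libraries. Double-called sites met both lists of the shCtrl ARID1A library at 5.39%, of shCtrl SETDB1 at 5.18% and of shCtrl H3K9me3 at 4.13%. Each of these shares was higher than that for TRIM28 itself in shARID1A cells (2.92%). They met both lists at 1.96% for shARID1A H3K9me3, 0.861% for shARID1A SETDB1 and 0.726% for unmodified TRIM28. The lists differ in covered length, and the shares were not adjusted for it. It was 56.3 Mb (input) and 81.8 Mb (IgG) for shARID1A TRIM28 and 11.3 and 23.8 Mb for unmodified TRIM28. For shCtrl cells it was 31.2 and 95.2 Mb for ARID1A, 30.5 and 43.7 Mb for SETDB1, and 27.6 and 66.5 Mb for H3K9me3. The shCtrl SETDB1 and H3K9me3 lists were thus shorter than those of shARID1A TRIM28. Each cell state has 1 input and 1 IgG sample, presumably the controls of all its lists, and the part of such shared controls was not tested.

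Most kept sites rested on few reads. Whole fragments at the summit were recovered from the deposited fold and p, and the median was 6 (quartiles 5 to 7) in each of the 4 lists. The sites not found again had a median of 6 fragments in shCtrl cells as well (quartiles 5 to 6). Only 8 kept sites had more than 20 shCtrl fragments, as did 5 of the sites not found again. The share of shCtrl input peaks that were kept was 1.74% at 4 fragments, 2.08% at 6, 3.14% at 8, 3.81% at 9, 3.17% at 10, 8.33% at 11 (8 of 96), 0% at 12 (0 of 33) and 16.3% above 12 (15 of 92). The shares thus did not rise at every step. Depth in shCtrl cells was part of the rule's own contrast, so they are a description.

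**Figure D1:**
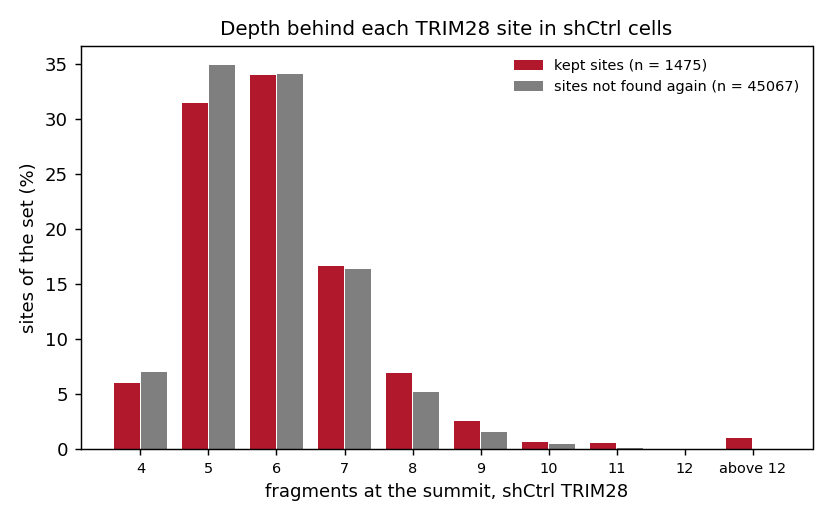
Share of each set of TRIM28 sites (%) by whole fragments at the shCtrl summit, for kept sites (red, n = 1475) and sites not found again (grey, n = 45067). Both sets have their median at 6 fragments, and 1.02% of kept sites against 0.0621% of those not found again lie above 12.

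TRIM28 enrichment at kept sites was low in both cell states. The fold enrichment over the local background, which is the authors' value for each peak, had a median of 2.64 (quartiles 2.31 to 3.01, range 1.61 to 6.38) in shARID1A cells against input. In shCtrl cells against input it was 2.78 (quartiles 2.44 to 2.98, range 1.34 to 5.54). Against IgG the medians were 2.62 in shARID1A cells and 2.71 in shCtrl cells. The complete lists had medians of 2.35 (input) and 2.43 (IgG) in shARID1A cells and 2.6 and 2.34 in shCtrl cells. A q of at most 0.05, called strong here, was reached by 37 kept sites (2.51%) in the shARID1A input list, where 1.04% of all peaks were strong. It was reached by 5 (0.339%) in the shCtrl input list, where 0.0355% were. In the shCtrl input list 1467 kept sites (99.5%) had a q of 1.

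How strong a site was in shCtrl cells said little of how strong it was in shARID1A cells. Across the 1475 sites the shARID1A and shCtrl folds against input had a Pearson correlation of 0.0307 and a Spearman correlation of 0.0446. Against IgG they were -0.0551 and -0.0585. Input and IgG folds of the same library, which share all precipitated reads, had Pearson correlations of 0.505 in shARID1A cells and 0.573 in shCtrl cells. All sites had passed a minimum in each list, which narrows the range.

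**Figure D2:**
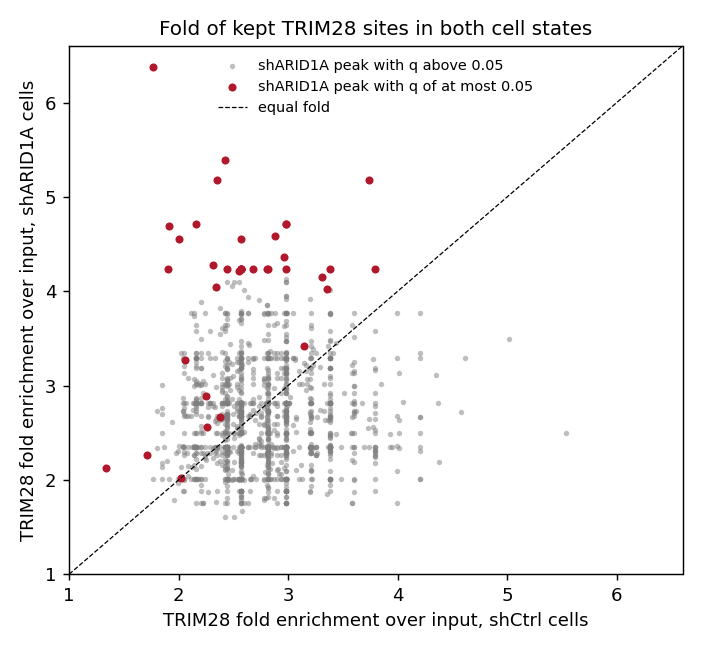
TRIM28 fold enrichment over input of each kept site (1 point per site, n = 1475), in shARID1A cells (vertical axis) and shCtrl cells (horizontal axis), with the line of equal fold. The 37 sites with a shARID1A q of at most 0.05 (red) lie mostly at high shARID1A and ordinary shCtrl folds, and the Pearson correlation over all sites is 0.0307.

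Summits lay apart between cell states. The shARID1A summit was a median of 127 bp from the shCtrl input summit in the input list (quartiles 59 to 214) and 130 bp in the IgG list. The shCtrl IgG summit, called from the same precipitated reads, was a median of 4 bp away. Within 50 bp were 311 shARID1A input summits (21.1%), 312 shARID1A IgG summits (21.2%) and 1325 shCtrl IgG summits (89.8%). Both shARID1A summits lay within 50 bp at 261 sites. The shARID1A input peak covered a median of 55% of the site. Kept sites had a median width of 249 bp in the shCtrl input list and those not found again 223 bp, and a wider site can meet another peak more easily.

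**Figure D3:**
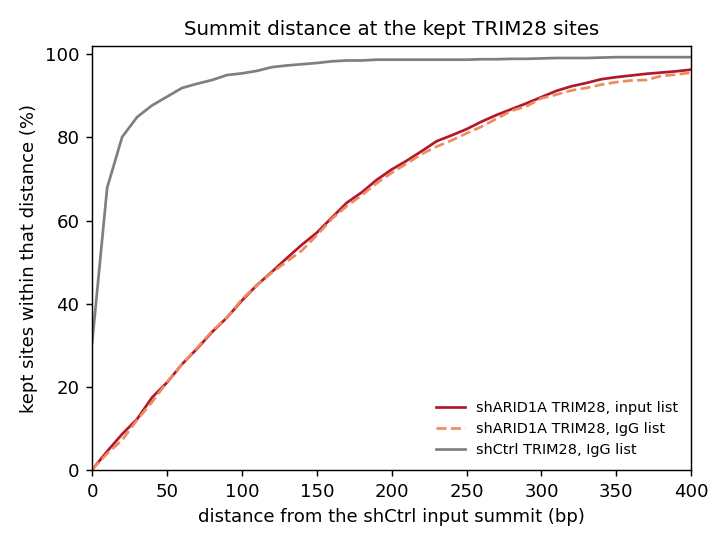
Cumulative share of the 1475 kept sites (%) whose TRIM28 summit in the named list lies within a given distance (bp) of the shCtrl input summit. The shARID1A input (red) and IgG (orange, dashed) curves reach 40.8% and 41.1% at 100 bp, and the shCtrl IgG curve (grey) 95.4%.

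The limits of the rule were 1 bp. Kept sites in RGS5 (a regulator of G protein signalling), XXYLT1 (a xylosyltransferase) and RIMS2 (a synaptic vesicle release protein) overlapped their shARID1A IgG peak by 1 bp. Their TRIM28 folds against input were 3.13, 2.68 and 2.34 in shARID1A cells and 2.57, 2.98 and 2.31 in shCtrl cells, in that order. Just outside, sites in KANSL1L, KCNMB2 and CFAP418-AS1 missed a shARID1A peak by 1 bp, with shCtrl folds of 2.44, 2.16 and 3.13.

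Of the 22 kept sites with a shCtrl input fold of at least 4.01, 12 lay in genes and 10 outside them. Those outside genes had shARID1A input folds of 2.01 to 3.77 and shCtrl input folds of 4.01 to 4.38. The 12 in genes, named here, lay in genes of unlike function. The highest was in PIP4P2, a phosphoinositide phosphatase, at chr8:91015741-91016298, with TRIM28 folds of 2.5 and 2.24 in shARID1A cells and 5.54 and 3.58 in shCtrl cells (input, then IgG). It was next in ARID1B, the paralogue of ARID1A in the SWI/SNF complex, at chr6:156864835-156865207, with 3.49 and 3.56 in shARID1A cells and 5.02 and 4.08 in shCtrl cells. All 4 values of the ARID1B site were above 3, and none of the 8 other libraries had a peak there. The site in CACNA1D, a calcium channel subunit, had 3.29 and 3.06 in shARID1A cells and 4.61 and 3.72 in shCtrl cells. The site in LEMD3, an inner nuclear membrane protein, had 2.72 and 2.64 in shARID1A cells and 4.58 and 2.26 in shCtrl cells. In PRKCZ, an atypical protein kinase C, it was 2.82 and 2.82 in shARID1A cells and 4.37 and 5.1 in shCtrl cells. PRKCZ also carried a shCtrl SETDB1 peak of fold 6.08. The other 7 lay in PTPRQ, KIAA1143, MYLK, HOXA3, CDKL3, ZBTB20 and REV3L, with shARID1A input folds of 2.31 to 3.29 and shCtrl input folds of 4.01 to 4.2. HOXA3 is a homeobox gene of the HOXA cluster, ZBTB20 a zinc finger repressor and REV3L the catalytic subunit of a translesion DNA polymerase. All 12 were lower in shARID1A cells against input, a direction that choosing them by the shCtrl fold favours.

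Strong sites made a small set. Of 24 kept sites that were strong in the shCtrl input list or in both shARID1A lists, 23 were strong in both shARID1A lists and 13 lay outside protein-coding and lncRNA genes. They held a median of 11 fragments in shARID1A cells and 8.5 in shCtrl cells. Their shARID1A input folds were 2.02 to 6.38, and a strong shARID1A q, by which most were chosen, favours a high shARID1A fold. The highest shARID1A fold was at chr6:59037461-59037912, outside genes, with 6.38 and 5.55 in shARID1A cells and 1.77 and 1.43 in shCtrl cells. The next within a gene was in ZNF662, a zinc finger gene, at chr3:42914110-42914311, with 5.18 and 4.45 in shARID1A cells and 2.35 and 2.78 in shCtrl cells. A site in the non-coding LOC107985634 on chromosome X had 5.18 and 3.85 in shARID1A cells and 3.74 and 4.15 in shCtrl cells. It was the only kept site of chromosome X. In XPR1, a phosphate exporter, the values were 4.71 and 4.27 in shARID1A cells and 2.16 and 1.95 in shCtrl cells. In TSPAN14, a tetraspanin, they were 4.36 and 5.26 in shARID1A cells and 2.96 and 2.39 in shCtrl cells. WDPCP, SLMAP, LOC107984005 and CCSER1 held the other named sites, with shARID1A input folds of 4.05 to 4.55 and shCtrl input folds of 2 to 3.31. Of the 24 sites, 13 had a shARID1A H3K9me3 peak against input (2.54% of all shCtrl TRIM28 input peaks did), 8 a shARID1A SETDB1 peak (1.23% of all) and 7 a shCtrl SETDB1 peak (7.57% of all). A shCtrl H3K9me3 peak was at 6 (7.7% of all), an unmodified TRIM28 peak at 6 (2.21%), and shCtrl ARID1A (8.01%) and unmodified H3K9me3 (0.907%) at 2 each. None had an unmodified ARID1A peak. Most of the 24 were chosen by strong shARID1A calls, and the shARID1A libraries presumably share the controls of those calls. Some of the 24 also had a high local background, described below. All input peaks are not matched to the 24 in either respect, so these shares are a description.

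Strong calls in all 4 lists came from sites with very many reads. There were 4, of which 3 lay on chromosome 17 between 26 and 27 Mb in no gene and 1 in LOC112268408 near the end of chromosome 18. The site at chr17:26603797-26604015 had 214 fragments in shARID1A cells and 222 in shCtrl cells, with folds against input of 2.89 and 2.25. The site in LOC112268408 at chr18:108025-108285 had 166 fragments in shARID1A cells and 180 in shCtrl cells, with folds of 2.67 and 2.38. Counts of this size with folds near those of other sites mean a high local background. Of the 25 shCtrl input peaks that were strong at all, 19 were double-called and 5 were kept, the fifth being PIP4P2.

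SETDB1 and H3K9me3 peaks were more frequent at kept sites than at sites not found again. The rule did not use these libraries. H3K9me3 of shARID1A cells was found at 143 kept sites (9.69%) and at 1.89% of those not found again, a difference of 7.81 percentage points (Newcombe 95% interval 6.4 to 9.43). Over all shCtrl TRIM28 input peaks it was found at 2.54%. SETDB1 of shCtrl cells was found at 184 kept sites (12.5%) and 5.38% of those not found again, a difference of 7.09 points (5.49 to 8.89), beside 7.57% over all input peaks. SETDB1 of shARID1A cells was found at 55 kept sites (3.73%) and 0.976% of the others, a difference of 2.75 points (1.89 to 3.85), beside 1.23% over all. Put the other way, 11.7% of the double-called sites with a shARID1A H3K9me3 peak were kept (143 of 1223), and 2.71% of those without one. In the IgG lists shARID1A H3K9me3 was at 19.3% of kept sites and 6.64% of the others (8.16% of all input peaks), shCtrl SETDB1 at 12.7% and 5.41% (6.26% of all), and shARID1A SETDB1 at 12.5% and 6.34% (7.49% of all). Strong peaks of shARID1A H3K9me3 were at 69 kept sites (4.68%) and 0.577% of the others, beside 0.952% of all. Strong shCtrl SETDB1 peaks were at 128 kept sites (8.68%) and 2.88% of the others, beside 4.41%, and strong shARID1A SETDB1 peaks at 8 (0.542%) and 0.0333%, beside 0.108%. When sites were compared within deciles of width, the input-list differences were 7.68 points for shARID1A H3K9me3, 6.58 for shCtrl SETDB1 and 2.73 for shARID1A SETDB1. The shARID1A libraries presumably have the same controls as the 2 shARID1A lists of the rule, and the shCtrl library those of its 2 shCtrl lists.

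The remaining shCtrl libraries differed less. H3K9me3 of shCtrl cells was at 7.86% of kept sites and 5.97% of those not found again, a difference of 1.89 points (0.605 to 3.39), beside 7.7% over all input peaks. In its IgG list, with peaks at 6.58% of all, the difference was 0.361 points, with an interval from -0.935 to 1.87. ARID1A of shCtrl cells was at 7.39% of kept sites and 6.09% of the others, a difference of 1.3 points (0.0535 to 2.77), beside 8.01% over all. In its IgG list the shares were 12.9% and 10.8%, beside 9.32%. The input-list difference changed sign when all other shCtrl input peaks served for comparison (-0.638 points). No share of ARID1A can be given in shARID1A cells, for which an ARID1A library was not analysed here.

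Unmodified cells have an input and an IgG sample of their own, so their lists presumably share no library with the rule. TRIM28 of unmodified cells was at 52 kept sites (3.53%) and at 1.84% of those not found again, a difference of 1.69 points (0.849 to 2.76), beside 2.21% over all input peaks. In both unmodified lists it was found at 34 kept sites (2.31%) and 0.63% of the others, a difference of 1.67 points (1.02 to 2.58), beside 0.732%. The unmodified IgG list alone gave 4.47% and 2.09%, beside 2.17%. H3K9me3 of unmodified cells was at 1.63% of kept sites and 0.677% of the others, a difference of 0.95 points (0.413 to 1.74), beside 0.907% over all, and in its IgG list at 2.1% and 0.77%, beside 0.809%. ARID1A of unmodified cells was at 1.76% of kept sites and 1.54% of the others. That difference of 0.225 points had an interval from -0.344 to 1.04 and did not exceed counting error, beside 2.21% over all input peaks. Most kept sites, 1423 of 1475, had no TRIM28 peak against input in unmodified cells.

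**Figure D4:**
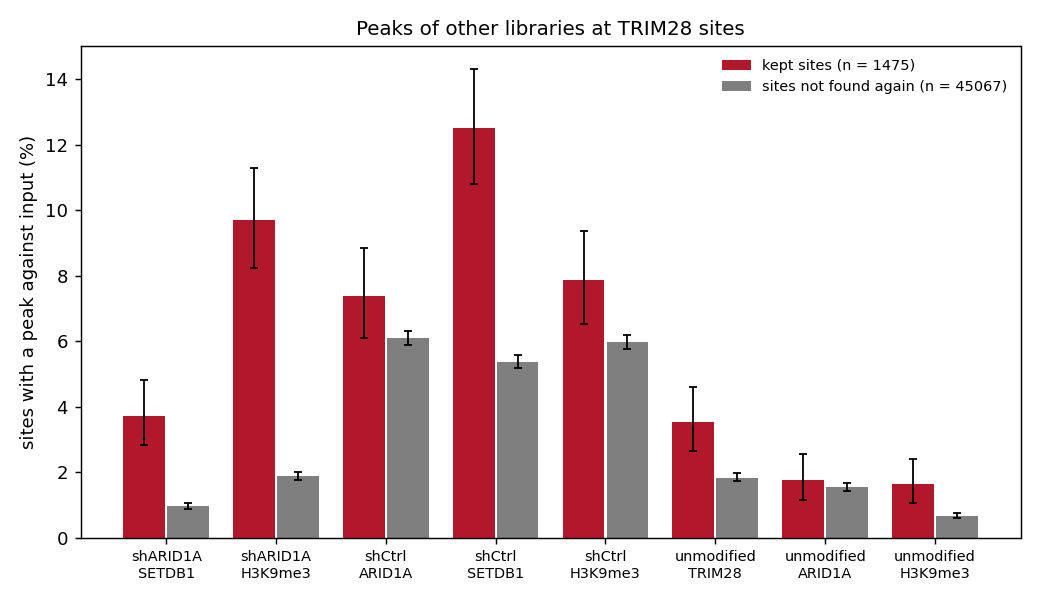
Share of TRIM28 sites (%) with a peak against input in each of the 8 libraries that the rule did not use, for kept sites (red, left bar) and sites not found again (grey, right bar), with exact 95% intervals for counting error. SETDB1 of shCtrl cells (12.5% against 5.38%) and H3K9me3 of shARID1A cells (9.69% against 1.89%) show the widest gaps.

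The sites with TRIM28 in unmodified cells as well give TRIM28 peaks in every cell state. The highest unmodified fold among those in both unmodified lists was in ZEB2, a zinc finger repressor of epithelial genes, at chr2:144498412-144498613. Its TRIM28 folds against input and IgG were 3 and 2.94 in shARID1A cells, 2.44 and 2.64 in shCtrl cells, and 3.37 and 3.46 in unmodified cells. None of the SETDB1 and H3K9me3 libraries had a peak there. SPECC1L, a cytoskeletal linker, had 2.82 and 2.35 in shARID1A cells, 2.98 and 3.24 in shCtrl cells and 3.37 and 1.98 in unmodified cells. In shARID1A cells the SPECC1L site also had H3K9me3 of fold 4.04 and SETDB1 of fold 2.71. LYST, a regulator of lysosome traffic, had 4.24 and 3.87 in shARID1A cells, 2.68 and 1.7 in shCtrl cells and 2.7 and 2.86 in unmodified cells. XRRA1, EPHA1-AS1 and LOC107987026 held the other genic sites of the highest 12, each with an unmodified fold of 2.66, and 6 lay outside genes. EPHA1-AS1 had H3K9me3 of 6.18 and SETDB1 of 4.74 in shARID1A cells, and SETDB1 of 6.08 in shCtrl cells.

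Small numbers of kept sites carried both SETDB1 and H3K9me3. Both shARID1A marks were at 27 kept sites (1.83%) and 0.16% of those not found again, a difference of 1.67 points (1.1 to 2.49), beside 0.329% of all input peaks. SETDB1 of shCtrl cells and H3K9me3 of shARID1A cells were together at 77 kept sites (5.22%) and 0.848% of the others, beside 1.31% of all. SETDB1 was found in both cell states at 29 kept sites (1.97%) and 0.202% of the others, beside 0.368%. SETDB1 and H3K9me3 of shCtrl cells were together at 32 kept sites (2.17%) and 1.5% of the others, a difference of 0.665 points (0.0258 to 1.55), and this share of kept sites was below the 2.36% of all input peaks. The shCtrl SETDB1 and shARID1A H3K9me3 shares also differed between kept and not-found-again sites where the other peak was absent. These conditional shares were not counted over all input peaks, so they have no such background. Among sites with no shARID1A H3K9me3 peak, shCtrl SETDB1 was at 8.03% of kept sites and 4.62% of those not found again, a difference of 3.41 points (2.06 to 5.01). Among sites with no shCtrl SETDB1 peak, shARID1A H3K9me3 was at 5.11% of kept sites and 1.1% of the others, a difference of 4.01 points (2.94 to 5.36). No input-list peak of the 8 libraries was present at 1029 kept sites (69.8%) and 81.9% of the others, beside 77.5% of all input peaks. At least 3 were present at 63 kept sites (4.27%) and 1.34% of the others, beside 2.27% of all.

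A few kept sites carried far higher SETDB1 and H3K9me3 folds than TRIM28 folds, and the following were chosen after their values were seen. At chr5:117713682-117714040, outside genes, SETDB1 had a fold of 6.49 in shARID1A cells and 38.6 in shCtrl cells, and H3K9me3 had 20.9 in shARID1A cells. TRIM28 there was 3.47 and 2.52 in shARID1A cells and 3.21 and 3.14 in shCtrl cells. At chr8:126222030-126222691, also outside genes and with TRIM28 in unmodified cells (3.03), SETDB1 had 4.87 in shARID1A cells and 23.2 in shCtrl cells, and H3K9me3 had 14.3 in shARID1A cells. The site in CFAP70, a cilium protein gene, had SETDB1 of 3.83 in shARID1A cells and 17.9 in shCtrl cells, and H3K9me3 of 10.7 in shARID1A cells. TRIM28 was 3.64 and 2.14 in shARID1A cells and 3.21 and 2.39 in shCtrl cells at the chromosome 8 site, and 3.61 and 4.17 in shARID1A cells and 2.4 and 2.38 in shCtrl cells at CFAP70. At all 3 sites shCtrl SETDB1 was the highest of these values, and the shARID1A TRIM28 fold against input was above the upper quartile of kept sites (3.01). The next sites by shCtrl SETDB1 fold were not all above that quartile. LOC105376030 (15.7) and SWT1 (13.8) had shARID1A TRIM28 input folds of 2.82 and 2.34, and SLMAP (14) had 4.21. The site at chr1:114363707-114364014 had shARID1A H3K9me3 of 13.4 and no shCtrl SETDB1 peak against input.

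Peaks of all 5 other shCtrl and shARID1A libraries met at 2 of 1475 kept sites and at 2 of 45067 sites not found again. The number over all shCtrl TRIM28 input peaks was not counted, and the sets were not compared on so few sites. Of the 2 kept sites, the first, in PIP4P2, had SETDB1 of 3.33 in shARID1A cells and 7.53 in shCtrl cells. Its H3K9me3 was 4.97 in shARID1A cells and 4.03 in shCtrl cells, and its ARID1A was 3.05 in shCtrl cells. The second, in SLMAP, a membrane-anchored scaffold protein, had SETDB1 of 2.6 in shARID1A cells and 14 in shCtrl cells. H3K9me3 at SLMAP was 3.38 in shARID1A cells and 2.45 in shCtrl cells, and ARID1A was 2.3 in shCtrl cells. TRIM28 at SLMAP was 4.21 and 4.81 in shARID1A cells and 2.55 and 1.79 in shCtrl cells.

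Kept sites lay slightly less often in genes. A gene body with 1000 bp on each side held 851 kept sites (57.7%) and 61.3% of those not found again, a difference of -3.62 points (-6.2 to -1.08), beside 61.7% of all input peaks. For protein-coding genes the shares were 42.4% and 46.6%, a difference of -4.15 points (-6.69 to -1.57), beside 46.7%. The share in promoter windows (0.29% against 0.399%, for chromosomes other than 8) differed by less than counting error. Distance to the nearest gene start had a median of 44.9 kb at kept sites and 43.8 kb at the others. No kept site lay on a miRNA hairpin. The gene table has no exons, so exons, introns and UTRs are not told apart.

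Chromosome 19, which holds the large clusters of KRAB zinc finger genes, had the highest kept share. There 19 of 330 shCtrl input peaks were kept (5.76%, exact interval 3.5 to 8.85), against 2.08% on the rest of the chromosomes. Chromosome 19 was singled out after the values were seen. Of its 19 sites, 8 lay in a zinc finger gene, namely ZNF57, ZNF699, ZNF564, ZNF573, ZNF45, ZNF776 and, with 2 sites, ZNF780B. The share of all chromosome 19 input peaks that lay in zinc finger genes was not counted, so the 8 have no background. Of 240 listed zinc finger genes there, 62 (25.8%) held an input peak and 6 (2.5%) a kept one. Over all protein-coding genes the shares were 40.4% and 2.93%. In ZNF564 the folds were 2.28 and 4.3 in shARID1A cells and 2.81 and 2.38 in shCtrl cells. In ZNF57 they were 3.77 and 2.82 in shARID1A cells and 2.63 and 4.17 in shCtrl cells. No input-list peak of another library met 14 of the 19 sites, and none met 69.8% of all kept sites and 77.5% of all shCtrl TRIM28 input peaks. The lowest shares were on chromosomes X (0.541%, 1 kept site), 22 (0.847%, 2 kept sites), 16 (0.893%), 8 and 13 (1.44% each). At chromosome 8 only 3540 of 6676 input peaks were double-called. Of its double-called sites 2.71% were kept, beside 2.92% over all chromosomes.

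**Figure D5:**
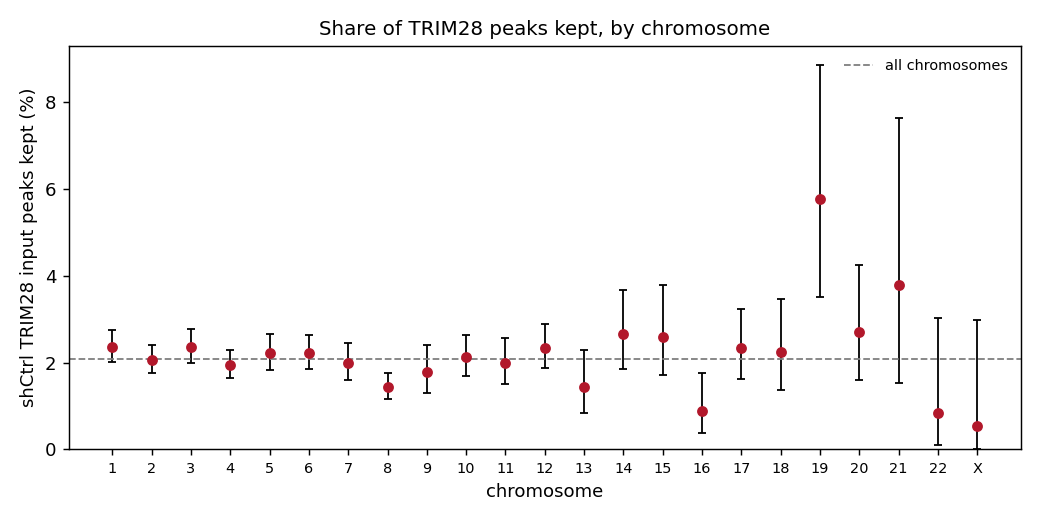
Share of shCtrl TRIM28 input peaks that were kept (%) on each chromosome, with exact 95% intervals for counting error. The dashed line is the share over all chromosomes, 2.09%, and the interval of chromosome 19 (5.76%) lies above it.

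The kept sites were scattered. They fell in 996 of the 2788 windows of 1 Mb that held any shCtrl TRIM28 input peak, and 674 windows held a single one. The window with the most, chromosome 2 from 226 to 227 Mb, had 8 of 122 peaks kept, 2 of them in RHBDD1, a rhomboid-like protease gene. Chromosome 1 from 227 to 228 Mb had 7 of 45, with 3 in ZNF678, a zinc finger gene, and 1 in CDC42BPA, a kinase. Chromosome 2 from 223 to 224 Mb also had 7, of 73, and so had chromosome 12 from 65 to 66 Mb, of 101. The 3 sites of ZNF678 had shARID1A input folds of 2.81, 3.19 and 1.88 and shCtrl input folds of 3.6, 2.81 and 2.57. The 5 kept sites between 26 and 27 Mb of chromosome 17, out of 9 peaks, include sites with over 100 fragments.

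Kept sites lay in 1 of the listed heterochromatin genes and 3 of the SWI/SNF genes. Over all protein-coding genes 586 of 19974 (2.93%) did. In the list of heterochromatin writers and readers it was 1 of 28 (3.57%), ATF7IP, the partner protein of SETDB1, with folds of 3.02 and 2.81 in shARID1A cells and 2.46 and 3.19 in shCtrl cells. Among SWI/SNF subunits it was 3 of 26 (11.5%), with no test of the list. They were ARID1B, SMARCA2 (an ATPase of the complex) and PBRM1 (a subunit of the PBAF form). Any shCtrl TRIM28 input peak was held by 14 of the 26 (53.8%), beside 40.4% of all protein-coding genes. Of those 14, 21.4% had a kept site, beside 7.26% of all protein-coding genes with an input peak. SMARCA2 had 2.76 and 2.69 in shARID1A cells and 2.57 and 2.49 in shCtrl cells, and PBRM1 had 2.57 and 2.8 in shARID1A cells and 2.2 and 2.43 in shCtrl cells. Sites in these 4 genes had no input-list peak of the 8 other libraries. Zinc finger genes held a site at 6 of 240 on chromosome 19 (2.5%) and 14 of 237 elsewhere (5.91%), in a list without ZNF780B. Of those with any shCtrl TRIM28 input peak, 9.68% on chromosome 19 and 12.7% elsewhere had a kept one, beside 7.26% of all protein-coding genes. Of 28 imprinted genes 3 (10.7%) held a kept site, and 9 (32.1%) held any shCtrl TRIM28 input peak. GRB10, a growth-limiting adaptor, held 1 site. KCNQ1 and its overlapping antisense RNA KCNQ1OT1 held the same single site. Of 25 p53 targets 1 did, POLK (a translesion DNA polymerase), and of 14 NBPF genes NBPF11 did, and NBPF copies are nearly alike in sequence. None of 25 intestinal and WNT genes, 84 ribosomal protein genes and 76 replication-dependent histone genes did, of which 12, 12 and 7 had any shCtrl TRIM28 input peak. The list of intestinal and WNT genes holds intestinal markers, WNT targets and a few pathway members. WNT3A and WNT7A, which are ligands, and LRP6, a WNT co-receptor, are outside it, and each held a kept site (named after their values were seen). Their shARID1A input folds were 1.85, 3.77 and 3.16 and their shCtrl input folds 3.35, 2.44 and 2.55, in that order. Long genes led by number, with 4 kept sites each in CCSER1 (1478 kb), LRP1B (1899.6 kb) and ZBTB20 (833 kb), out of 95, 70 and 71 input peaks.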

How the data were processed

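ChIP-seq peak lists of 10 precipitated HCT116 libraries, each called against input and against IgG (20 lists, 16 samples with the controls), were used as the authors deposited them. Per the submitters' processing notes, the tools were MACS2 2.2.7.1, Bowtie2 2.2.5, FastQC 0.11.9, ChIPseeker and deepTools 3.5.1, and the build was GRCh38 (hg38). The sources used here do not give their options. The authors made a peak call for every library separately; its control was read from the name of the list, since the labels are silent on it. The deposited fold is a ratio of summit pileup to local background, and the deposited −log10 p and −log10 q belong to the same call. The deposited score of each peak was not used. The antibody product for TRIM28 and H3K9me3 differs between the protocol and the sample characteristics in the labels.

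Peaks on chromosomes 1 to 22 and X were intersected at 1 bp. The sources used here give no depth per sample. Whole fragments were recovered from fold and p (tolerance 0.003; tested on simulated data), with a scale of 0.775 for the shCtrl input list and 1 for the other 3, and values from both lists of a library were equal at 97.3% (shARID1A) and 98.4% (shCtrl) of kept sites. Shares carry exact Clopper-Pearson and differences Newcombe 95% intervals; a difference was called where its interval left out 0. No p-values were computed from these single libraries. Genes, promoters and miRNAs came from RefSeq tables of GRCh38.p14. Python 3.11.15, pandas 2.3.3, scipy 1.17.1 and statsmodels 0.14.6 were used.

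Named genes were those with the 12 highest shCtrl folds among sites in genes, strong q (at most 0.05), the 12 highest unmodified TRIM28 folds in both lists, the 3 densest 1 Mb windows, peaks of every other shCtrl and shARID1A library, members of the gene lists (all for heterochromatin and SWI/SNF, up to 3 otherwise; further zinc finger genes were added after their values were seen), and 3 sites on each side of the rule's limit. The sites, the gene lists and these rules were chosen with earlier results of these data known. Alternatives were stricter p and q, 50% coverage, other lists and comparison sets, merging, width and fold deciles, and left-out windows or chromosomes.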

Additional observations from a re-analysis of the deposited data

Results flagged for a closer look

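Peaks on unplaced and unlocalized sequences were outside the rule, which covers chromosomes 1 to 22 and X. Of 285 shCtrl TRIM28 input peaks on them, 29 were found in all 4 lists (10.2%, exact 95% interval 6.92 to 14.3), on 12 sequences, against 2.09% on the chromosomes. No list of a control sample was used to set beside this share.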

How the results depend on the processing

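Of 122 alternatives, 98 were counted as the same. For 4 of these, on the number of kept sites, this meant a similar number, since a count has no direction or call. For the others it meant the same direction and an unchanged call. They include 10 for unmodified ARID1A, which had no call at the main setting. The differences for unmodified TRIM28 (0.0611 to 3.91 points), shCtrl SETDB1 (4.49 to 9.58), shARID1A SETDB1 (0.509 to 6.14) and shARID1A H3K9me3 (4.1 to 12.7) kept direction and call in all 13 alternatives each. For unmodified TRIM28 at q of at most 0.05 (0.0611 points, 0.00384 to 0.376) this rested on 1 kept site and 3 sites not found again. The number of kept sites was 1475 of 70447 shCtrl input peaks. Of the same peaks it became 741 when at least 50% of the site had to be covered. It was 3922 with the input lists only and 261 with both shARID1A summits within 50 bp. Other alternatives changed the starting peaks as well. At p of at most 0.01 it was 564 of 38121, and at q of at most 0.05 it was 4 of 25. With the IgG lists only it was 19093 of 264115 shCtrl IgG-list peaks. The difference for shCtrl ARID1A lost its call with both lists of that library (1.02), at 50% coverage (0.373), within width deciles (0.773), within fold deciles (1.23) and at p of at most 0.01 (1.92). It changed sign at q of at most 0.05 (-0.00444), against all other input peaks (-0.638) and with near summits (-0.725). For shCtrl H3K9me3 the call was lost with the IgG list (0.361), at q of at most 0.05 (0.0833), at 50% coverage (0.7), against all other input peaks (0.169) and with near summits (0.54). For unmodified ARID1A the sign changed at 50% coverage (-0.172) and against all other input peaks (-0.461), and merging peaks within 1000 bp gave a call (0.805). Unmodified H3K9me3 lost its call in both lists (0.115), and gene overlap at p of at most 0.01 (-2.63). The cause was not tested in any of these. Unmodified H3K9me3 had no strong peak at a site of either set, so that alternative gave no difference. Near summits and leaving out sites above 20 fragments were chosen after seeing the data. No paired analysis was possible because each group had 1 library with no replicate number. About 6 fragments per summit limit what a missing peak can show: a site not called again may be below detection at this depth.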
